A study of Mus musculus with 12 samples.

Results

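The genes described here are the histone methylation and deacetylation enzymes of the embryonic mouse cortex, taken as every symbol in the count tables that matched Kmt, Kdm or Hdac with a digit, Setd with a digit, or Ezh1 and Ezh2. The rule found 47 of 23513 genes: 8 Kmt, 8 Setd, 17 Kdm and 11 Hdac genes, the pair Ezh1 and Ezh2, and Kdm6bos, an antisense RNA that overlaps Kdm6b. The rule used names alone and no measured value. Setd3, Kdm8, Hdac6, Hdac10 and Hdac11 match it by name, although the best known substrates of their proteins are not histones (tubulin for Hdac6, polyamines for Hdac10 and fatty acyl groups on proteins for Hdac11).

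Nucleosomes carry methyl groups on lysines of histones H3 and H4 and acetyl groups on many lysines of the histone tails. Kmt2 and Setd1 proteins methylate H3 lysine 4 at promoters and enhancers, Ezh1 and Ezh2 are the alternative catalytic subunits of Polycomb repressive complex 2 and methylate H3 lysine 27, Setd2 methylates H3 lysine 36 and Kmt5 enzymes methylate H4 lysine 20. Kdm1 enzymes and the larger group of JmjC demethylases remove these marks, and most class I Hdac proteins remove acetyl groups as parts of corepressor complexes. In the developing cortex Ezh2 is known as an enzyme of dividing progenitors, while the class IIa Hdac proteins shuttle between nucleus and cytoplasm in neurons.

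Nuclei were sequenced from single cortices of C57BL/6J embryos collected at embryonic day 14. Dams received intraperitoneal saline (Saline, 5 embryos) or 2.5 g/kg EtOH, given as 25% v/v in saline (EtOH, 6 embryos), once a day for 6 days from embryonic day 8 to embryonic day 13. Each treatment was represented by 2 dams, S1 and S2 or E1 and E2, with S1 and E1 processed as batch 1 and S2 and E2 as batch 2. Embryos are named by dam and number, and the main test took littermates as independent, so that its p-values rest on the spread between embryos and not between dams.

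The tables held 50550 nuclei in 25 clusters, with 14078316 to 83061737 unique molecular identifiers (UMIs) per embryo. Median UMIs per nucleus were 6325 in the Saline embryo S2-4, 8365 to 9051 in the other Saline embryos and 4071.5 to 6911 in EtOH embryos. S2-4, a library labelled saline, stood with the EtOH libraries: its log2 levels correlated at a mean of 0.994 with those of the EtOH embryos and 0.980 with those of the other Saline embryos, and its score on the first principal component (57.3% of the variance) was 0.22, against 0.16 to 0.27 in EtOH and -0.50 to -0.23 in the other Saline embryos. The main counts of the treatment comparison and the leading genes are therefore also given without S2-4. Libraries shared at most 18 cell barcodes. Summed over all nuclei, the marker of proliferation Mki67 had 86.2 to 108 CPM (counts per 1000000 UMIs) in Saline and 59.9 to 81.0 CPM in EtOH embryos, while Top2a, the other proliferation marker, overlapped with 136 to 259 and 144 to 204 CPM. The nuclear RNA Malat1 had 15973 CPM in S2-4, 12156 to 13882 CPM in the other Saline embryos and 15123 to 17389 CPM in EtOH embryos. Without S2-4, neither Malat1 nor median UMIs per nucleus overlapped between the groups. The summed ribosomal protein genes had 1669 to 1841 CPM in S1-1, S1-2 and S2-1, 2345 CPM in S2-2 and 2285 CPM in S2-4. In EtOH embryos they had 2161 to 2410 CPM. The microglial marker P2ry12 had a mean of 9.61 ± 3.97 CPM in Saline and 17.04 ± 1.99 CPM in EtOH embryos (SD, n = 5 and 6). The other microglial marker, Ly86, had 0.534 ± 0.174 and 0.447 ± 0.203 CPM. Radial glial cells made up 20.97% to 31.2% of nuclei in Saline and 17.2% to 23.5% in EtOH embryos, and projection neurons 18.3% to 33.6% and 29.3% to 44.9%. Of 4 radial glial markers 1, Nes, fell in all nuclei (log2 fold change -0.44, adjusted p = 0.0216). The part of these differences in the results below was not tested. The cluster classes carried their markers, with Hes1 at 74.1 CPM in radial glial cells (RGC) and 2.97 CPM in projection neurons (PN), Eomes at 347 CPM in intermediate progenitor cells (IPC), Neurod2 at 187 CPM in PN and Gad2 at 962 CPM in interneurons (Int).

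The sequences before the start sites of the genes on which the treatment comparison turns most are shown first, Ezh2 and Kdm7a for the genes that were lower after EtOH and Hdac11 and Hdac5 for those that were higher. Each runs from 250 bases before to 30 bases after the RefSeq start on GRCm38.p6, 5′ to 3′ on the strand of the gene, and capitals mark a word of the E2F transcription factor consensus.
Ezh2, chr6:47595001-47595280, minus strand: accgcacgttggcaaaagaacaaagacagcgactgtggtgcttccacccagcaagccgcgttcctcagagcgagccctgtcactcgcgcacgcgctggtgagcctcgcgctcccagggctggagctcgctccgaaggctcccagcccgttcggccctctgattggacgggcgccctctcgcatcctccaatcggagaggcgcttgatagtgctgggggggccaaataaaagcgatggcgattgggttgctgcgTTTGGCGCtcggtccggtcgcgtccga
Kdm7a, chr6:39206744-39207023, minus strand: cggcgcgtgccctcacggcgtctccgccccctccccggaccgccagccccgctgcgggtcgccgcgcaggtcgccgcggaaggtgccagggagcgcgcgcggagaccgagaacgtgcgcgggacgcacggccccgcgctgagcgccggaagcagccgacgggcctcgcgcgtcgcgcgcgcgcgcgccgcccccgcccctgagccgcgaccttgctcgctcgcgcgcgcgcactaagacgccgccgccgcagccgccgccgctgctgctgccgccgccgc
Hdac11, chr6:91156565-91156844, plus strand: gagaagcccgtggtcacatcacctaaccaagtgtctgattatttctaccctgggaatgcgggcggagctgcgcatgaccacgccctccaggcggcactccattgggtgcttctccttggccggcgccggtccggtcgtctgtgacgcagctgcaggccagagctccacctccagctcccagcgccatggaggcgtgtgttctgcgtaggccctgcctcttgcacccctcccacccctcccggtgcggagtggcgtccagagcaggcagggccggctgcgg
Hdac5, chr11:102230143-102230422, minus strand: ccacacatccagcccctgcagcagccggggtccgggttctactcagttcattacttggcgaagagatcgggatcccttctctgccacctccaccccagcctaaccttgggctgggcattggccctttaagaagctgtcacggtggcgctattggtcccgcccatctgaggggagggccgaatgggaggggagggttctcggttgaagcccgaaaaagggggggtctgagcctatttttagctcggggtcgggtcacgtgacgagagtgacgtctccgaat
The words searched were TTTCCCGC, TTTGGCGC, TTTCGCGC and TTTGCCGC on both strands, over windows of 300 bases that end 50 bases after the start. Ezh2 held TTTGGCGC from base 4 after its start. The other 3 windows shown held none of these words. Of 49 windows of the 35 genes with an entry, 2 (4.08%) held a word, those of Ezh2 and Kmt5c, against 2.26% of 32851 windows of all genes. The windows were rich in G and C, with a median of 62.7% for the listed genes and 52.7% for all, and the window of Kdm7a reached 82.7% with 65 CpG dinucleotides.

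All 47 genes were detected, with 1439 UMIs for Kdm4d, the lowest, and 240661 UMIs for Kmt2c, the highest. Levels are compared only between clusters and embryos within a gene, since counts in nuclei move with gene length. Of the 47 genes, 24 overlap an annotated gene on the other strand, and how the counting treated strand is not given in the sources used here. Reads of Kdm6b (11:69398508-69413675, minus strand) and Kdm6bos (11:69401513-69402700, plus strand) may therefore not be separable.

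In most of the genes the highest cluster mean was less than 2 times the median over clusters. The ratio of the highest cluster mean to the median of the 25 clusters had a median of 1.62 over the 47 genes, and 12 genes (25.5%) reached 2, against a median of 1.92 and 47.6% over 13630 genes with at least 5 CPM in their highest cluster. In 19 genes (40.4%) the highest mean was in 1 of the 5 RGC clusters and in 12 (25.5%) in 1 of the 2 IPC clusters, where 47.9% and 10.6% of the 13630 genes had it. Embryo values of the highest cluster overlapped those of the next in 45 genes, and only Hdac9 and Kdm2b had a highest cluster apart from the next. The clusters were built from the same counts, so these levels are a description.

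**Figure D1:**
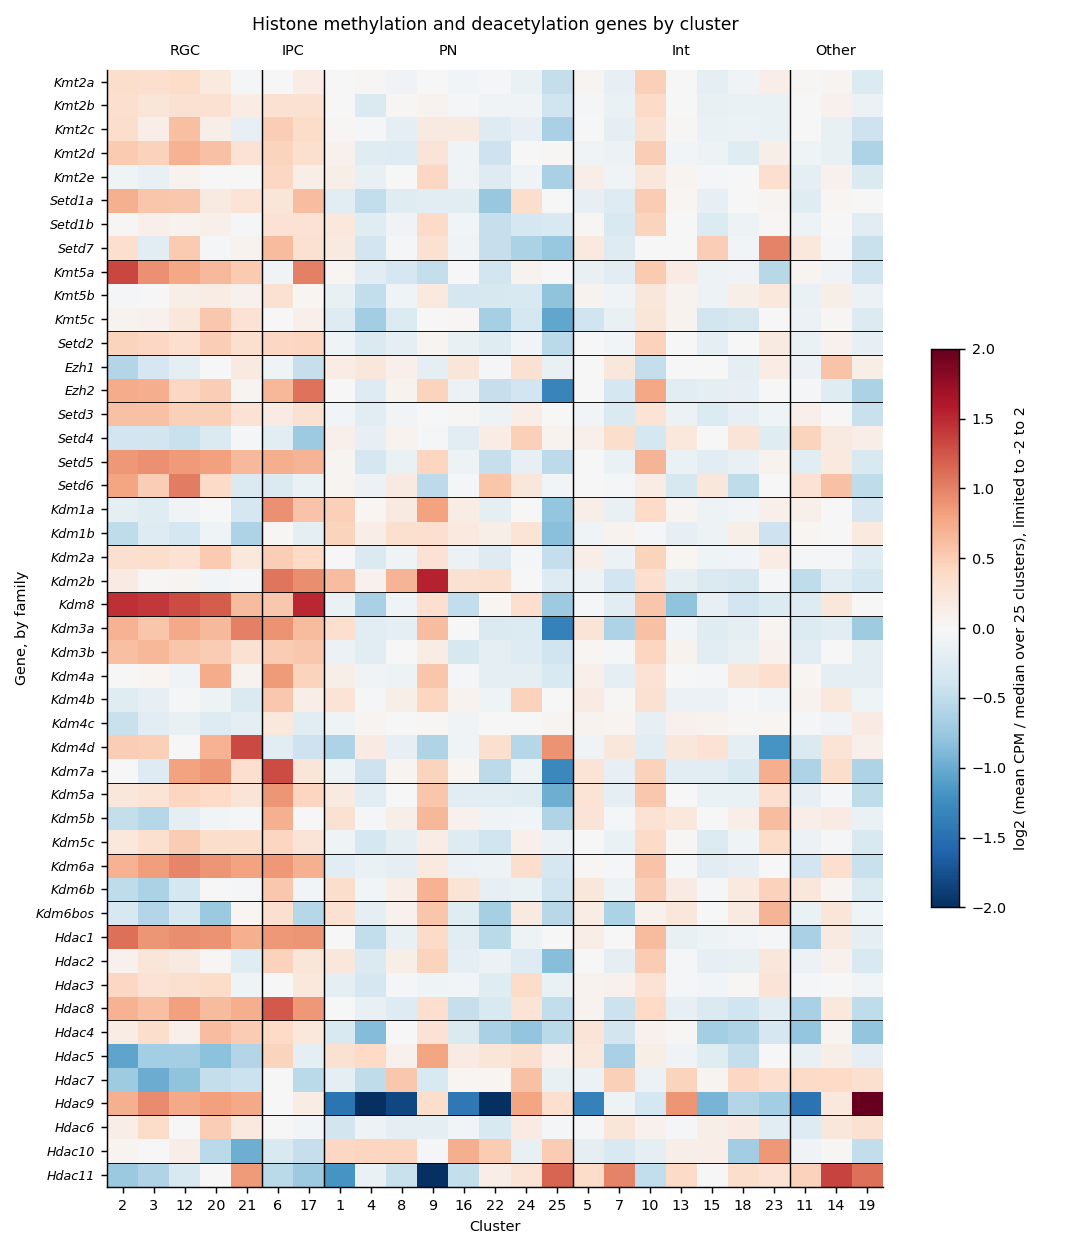
Each row is 1 of the 47 genes, grouped by family, and each column 1 of the 25 clusters, grouped by class; colour gives the log2 ratio of the mean CPM over embryos to the median of the row. Ezh2 and Hdac1 run high in the RGC and IPC clusters. Kmt5a is highest in Cluster 2 (RGC) and Cluster 17 (IPC), but in Cluster 6 (IPC) it has 25.4 CPM against a median of 26.7 CPM. Hdac5 and Hdac7 run low in RGC clusters, and Hdac9 is lowest in PN Clusters 4 and 22 and highest in Cluster 19.

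Among the H3 lysine 27 methyltransferases, Ezh2 and Ezh1 had opposite patterns. Ezh2 averaged 749 ± 66.3 CPM (SD, n = 11 embryos) in Cluster 17, the mitotic IPC, and 142 ± 41.2 CPM (n = 7) in Cluster 25. Over classes, Ezh2 had 553 ± 32.5 CPM in RGC, 618 ± 31.4 CPM in IPC, 340 ± 24.02 CPM in PN and 356 ± 29.9 CPM in Int. Ezh1 was lowest in Cluster 2, an RGC cluster, at 17.7 ± 2.96 CPM and highest in Cluster 14, the Cajal-Retzius cells, at 39.3 ± 8.14 CPM. Across the 25 clusters, which share libraries and depth, the level of Ezh2 moved with that of Mki67 (Spearman's rho 0.80) and that of Ezh1 against it (rho -0.61). The removal side of the same mark was split as well: Kdm6a had 262 ± 61.2 CPM in RGC and 141 ± 22.9 CPM in PN, while Kdm6b had 53.9 ± 3.81 and 83.6 ± 5.56 CPM.

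Of 8 methyltransferases of H3 lysine 4, 4 were higher in RGC than in PN without overlap of embryo values (Kmt2a, Kmt2c, Kmt2d and Setd1a) and the other 4 overlapped, where 41.5% of all genes were higher. Of the 4 that overlapped, Kmt2b and Setd7 were higher in RGC in each of the 11 embryos. Kmt2d had 55.3 ± 5.86 CPM in RGC and 36.1 ± 4.24 CPM in PN, and Setd1a, a catalytic subunit of the SET1 complexes, had 18.1 ± 2.93 and 9.74 ± 1.03 CPM. Kmt2e, a relative with little or no methyltransferase activity, was highest in IPC (451 ± 29.5 CPM). Of their counterparts, the demethylase Kdm5b had 176 ± 10.0 CPM in RGC, 332 ± 14.7 CPM in IPC and 259 ± 8.74 CPM in PN, and Kdm1a (LSD1) was likewise highest in IPC at 410 ± 41.7 CPM. Kdm1b was higher in PN (26.4 ± 1.52 CPM) than in RGC (16.995 ± 1.57 CPM).

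Kmt5a, the H4 lysine 20 monomethyltransferase whose protein is tied to the cell cycle, had 67.2 ± 7.10 CPM in Cluster 2 and 55.9 ± 4.71 CPM over RGC, against 23.8 ± 2.06 CPM in PN. Setd5 had 520 ± 19.1 CPM in RGC and 268 ± 17.4 CPM in PN, and Setd2 had 227 ± 16.4 and 152 ± 10.1 CPM. Setd3, an actin histidine methyltransferase, had 109 ± 7.29 and 70.6 ± 3.36 CPM. Setd4, by contrast, was lowest in Cluster 17 (15.6 ± 5.65 CPM) and highest in Cluster 24, a PN cluster (36.1 ± 15.5 CPM, n = 10). Kdm2b, which recruits a Polycomb complex to CpG islands, reached 341 ± 34.6 CPM in Cluster 9, the early PN, with 248 ± 36.7 CPM in Cluster 6, the non-mitotic IPC. Kdm7a, a demethylase of H3 lysines 9 and 27, was highest in Cluster 6 at 209 ± 14.6 CPM. Kdm8 was highest in Cluster 17 at 17.9 ± 4.13 CPM and Kdm3a in Cluster 21 at 218 ± 30.7 CPM (n = 10). Kdm4d and Setd6 stayed under 9 CPM in every cluster.

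Deacetylases differed between RGC and PN in both directions, also within a class. The class I genes Hdac1 and Hdac8 were high in progenitors, Hdac1 with 101 ± 4.98 CPM in RGC and 46.0 ± 5.28 CPM in PN, and Hdac8 with 280 ± 21.04 CPM in RGC, 377 ± 32.5 CPM in IPC and 161.6 ± 10.6 CPM in PN. Hdac2, the other catalytic subunit of the same corepressor complexes as Hdac1, had 96.0 ± 6.52 and 89.0 ± 6.32 CPM in RGC and PN, and its embryo values overlapped. Of the class IIa genes, Hdac5 had 16.2 ± 3.24 CPM in RGC and 36.1 ± 5.57 CPM in PN, Hdac7 had 29.6 ± 4.22 and 49.7 ± 4.06 CPM, and Hdac4 (197 ± 10.2 and 131 ± 3.42 CPM) and Hdac9 (531 ± 44.5 and 136 ± 18.6 CPM) ran the other way. Hdac9 had the widest range of all 47 genes, with 55.4 ± 23.7 CPM in Cluster 22 and 1321 ± 437 CPM in Cluster 19, whose cell type the study left unknown. In the 11 embryos Hdac9 ran from 787 to 1968 CPM in Cluster 19. Hdac11, the class IV enzyme, was highest in Cluster 14 at 30.3 ± 10.3 CPM and averaged 15.9 ± 4.26 CPM in Int and 8.71 ± 2.20 CPM in PN.

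Counting genes at 5 CPM or more whose embryo values did not overlap at all, 21 of 45 genes were higher in RGC than in PN and 7 were lower, where 41.5% and 13.6% of 11750 genes were. The 7 lower genes were Kdm1b, Kdm2b, Kdm4c, Kdm5b, Kdm6b, Hdac5 and Hdac7. Between Int and PN, Kmt5b, Hdac4 and Hdac9 were higher in Int and Kdm2b was lower, of 44 genes (background 12.4% and 5.83%). Between the mitotic and the non-mitotic IPC, Clusters 17 and 6, Kmt5a and Ezh2 were higher in Cluster 17 and Kdm4c, Kdm7a, Kdm5a and Kdm5b were lower, of 43 genes (background 5.55% and 1.69%). Kdm7a had 99.9 CPM in Cluster 17 and 209 CPM in Cluster 6. The classes come from the same embryos, and more genes kept one order within every embryo. Of these genes, 26 were higher and 10 lower in RGC than in PN in 11 of 11 embryos, where 57.9% and 19.2% of all genes were. In Int 13 were higher and 4 lower than in PN (29.2% and 11.6% of all genes), among them Hdac1, Hdac11 and Kdm7a, which were higher, and Hdac5 and Kdm1a, which were lower. In Cluster 17, 3 were higher and 13 lower than in Cluster 6 (10.9% and 7.67% of all genes), with Kmt2c, Kmt2e, Hdac5, Hdac7 and Hdac8 among the lower. With each nucleus thinned to 2000 UMIs, no gene was apart with higher values in Int than in PN.

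Over all nuclei, levels varied little between embryos. The coefficient of variation was under 10% in 33 genes and over 20% in 3, Kdm6bos (36.3%), Hdac11 (23.7%) and Kdm6a (20.3%). Kdm6a and Kdm5c, which lie on chromosome X and encode demethylases of H3 lysine 27 and of H3 lysine 4, varied within litters. Kdm6a was at 127, 133, 140 and 146 CPM in E2-1, E2-3, E1-1 and S2-1, and between 191 and 224 CPM in the other 7 embryos. Kdm5c was at 103 to 109 CPM in the same 4 embryos and at 128 to 153 CPM in the other 7. Eif2s3x, another gene of chromosome X, was at 26.2 to 32.3 CPM in those 4 and at 39.0 to 48.2 CPM in the others. The SD of log2 CPM within dams was 0.31 for Kdm6a, against a median of 0.080 over the 47 genes. Embryo sex is not in the labels, and the authors removed Xist and Y-linked genes, Kdm5d among them. After EtOH, Kdm6a had 164 ± 33.9 CPM against 201 ± 31.4 CPM in Saline (log2 fold change -0.37 ± 0.15 SE, edgeR adjusted p = 0.0967), with 3 of the 6 EtOH and 1 of the 5 Saline embryos in the lower set.

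**Figure D2:**
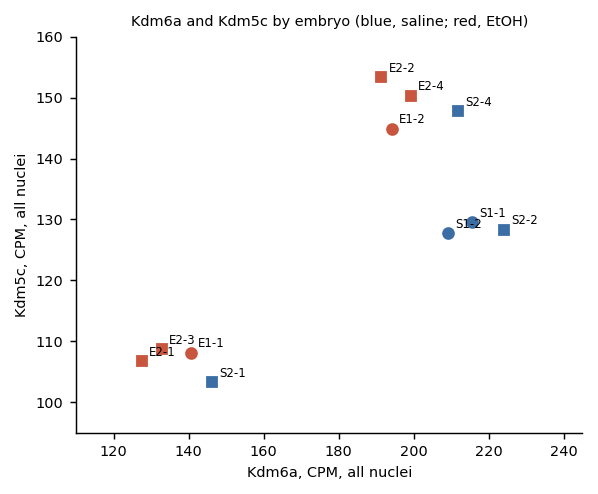
Kdm6a (x axis) and Kdm5c (y axis) in CPM over all nuclei, 1 point per embryo (blue, Saline; red, EtOH; circles, batch 1; squares, batch 2), with axes that do not start at 0. The 4 embryos E1-1, E2-1, E2-3 and S2-1 sit at or under 146 CPM of Kdm6a and 109 CPM of Kdm5c, and the other 7 sit above both.

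Whether EtOH changed these genes was asked first in all nuclei of an embryo together, where the mix of cells and the level per cell cannot be told apart. After EtOH, Ezh2, Kmt2a, Kmt2d, Setd5, Kdm7a and Kmt5c were among the genes that fell, while Hdac11, Hdac5, Setd4, Ezh1, Kdm4b and Kdm6bos rose. By edgeR's quasi-likelihood test with Benjamini-Hochberg adjustment over all genes, 6 of the 47 genes rose and 15 fell at an adjusted p under 0.05 (12.8% and 31.9%), where 10.5% of 18138 genes rose and 10.5% fell. Without S2-4, 7 rose and 17 fell, where 20.7% and 17.7% of all genes did. Of genes with a mean of at least 20 CPM, 7.56% rose and 21.4% fell, and of the 39 listed genes at that level 4 rose and 14 fell. The study's fold threshold, 0.32 in either direction on the log2 scale, left 4 genes higher (Hdac11, Hdac5, Setd4 and Kdm6bos) and 1 lower (Kmt5c), where 8.55% and 3.55% of all genes passed. The median log2 fold change was -0.08 over the 47 genes and 0.01 over all genes tested. With scaling to total UMIs only, 5 genes rose and 9 fell at the same adjusted p (9.03% and 4.07% of all genes), 3 and 0 of them past the fold threshold, and 7 genes that had not passed (Kmt2b, Kdm3b, Kdm4c, Kdm5a, Kdm5c, Kdm8 and Hdac6) changed sign.

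Ezh2 had 431, 446, 444, 451 and 420 CPM in the Saline embryos S1-1, S1-2, S2-1, S2-2 and S2-4, and 397, 372, 381, 375, 377 and 399 CPM in E1-1, E1-2 and E2-1 to E2-4. Every EtOH embryo lay under every Saline embryo, and S2-4 was the lowest of the Saline embryos. The log2 fold change was -0.27 ± 0.053 SE (edgeR adjusted p = 0.0148), and -0.30 without S2-4. Kmt2d, an H3 lysine 4 methyltransferase of enhancers, was at 41.5 to 53.5 CPM in Saline with a median of 45.6, and at 36.4 to 40.9 CPM in EtOH with a median of 39.1. Its groups did not overlap either (log2 fold change -0.31 ± 0.063 SE, adjusted p = 0.0154, and -0.35 without S2-4). Kdm7a fell from 98.1 ± 3.88 to 86.2 ± 4.21 CPM (log2 fold change -0.26 ± 0.059 SE, adjusted p = 0.0176, and -0.30 without S2-4), and its largest EtOH value, 89.7 CPM, was under the smallest Saline value, 91.7 CPM.

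In all, 7 genes had every EtOH embryo under every Saline embryo (Kmt2c, Kmt2d, Kmt2e, Ezh2, Setd5, Kdm7a and Hdac9) and 0 had every EtOH embryo above, where 3.31% and 1.95% of 11160 genes did. Without S2-4 there were 8 genes of each kind, against 7.32% lower and 19.4% higher of all genes. The 8 that were then higher were Setd7, Ezh1, Setd4, Kdm1a, Kdm2b, Hdac3, Hdac5 and Hdac11. Kmt2a, the MLL1 methyltransferase, had 298 to 328 CPM in Saline and 266 to 302 CPM in EtOH embryos, with E1-1 alone inside the Saline range (log2 fold change -0.24 ± 0.048 SE, adjusted p = 0.0151). The class I deacetylases Hdac1 and Hdac2 passed the test as well (log2 fold changes -0.21 and -0.18, adjusted p = 0.0204 and 0.0333).

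Hdac5 had 20.1, 21.2, 20.1, 26.2 and 31.1 CPM in the Saline embryos in the order above, and 34.5, 33.96, 32.4, 30.5, 30.5 and 31.5 CPM in the EtOH embryos. Of the Saline embryos only S2-4 reached the EtOH range. The log2 fold change was 0.38 ± 0.085 SE (adjusted p = 0.0176) and 0.47 without S2-4. Hdac11 had 7.73, 7.91, 8.93, 11.3 and 11.8 CPM in Saline and 11.7, 14.2, 13.5, 16.5, 14.2 and 13.7 CPM in EtOH embryos, so that S2-4 alone overlapped with E1-1 (log2 fold change 0.50 ± 0.101 SE, adjusted p = 0.0151, and 0.56 without S2-4). Setd4 behaved alike, with 17.8 to 28.8 CPM in Saline, the highest of which was S2-4, and 25.7 to 30.7 CPM in EtOH embryos (log2 fold change 0.35 ± 0.085 SE, adjusted p = 0.0210, and 0.45 without S2-4). Kdm6bos had 1.70 to 2.91 CPM in 4 Saline embryos, 5.10 CPM in S2-4 and 4.05 to 5.71 CPM in EtOH embryos (log2 fold change 0.69 ± 0.227 SE, adjusted p = 0.0470, and 1.00 without S2-4). Its partner on the other strand, Kdm6b, had 75.2 ± 3.92 and 79.1 ± 4.69 CPM. Kmt5c, an H4 lysine 20 methyltransferase of heterochromatin, had 20.3 ± 3.20 CPM in Saline and 16.95 ± 1.13 CPM in EtOH embryos, and the groups overlapped (log2 fold change -0.33 ± 0.096 SE, adjusted p = 0.0314, and -0.40 without S2-4). With the dam as a random block in limma, Kmt5c had an adjusted p of 0.0698.

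**Figure D3:**
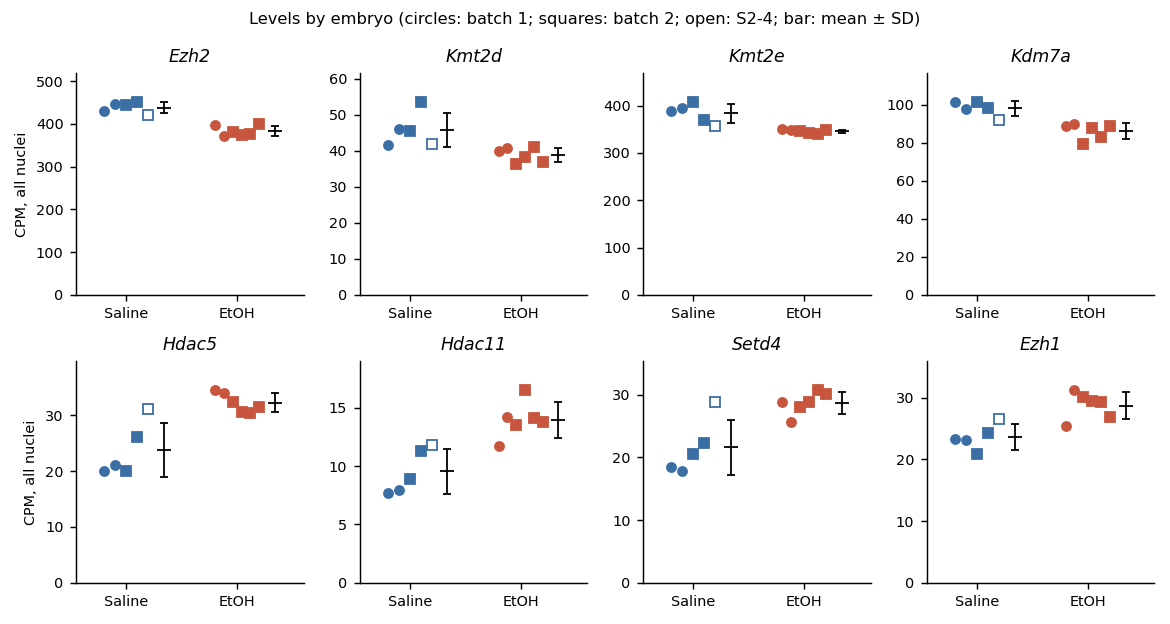
CPM over all nuclei of 8 genes by embryo, with the mean ± SD of each group beside the points (n = 5 and 6). For Ezh2, Kmt2d, Kmt2e and Kdm7a all 6 EtOH points lie under all Saline points, and for Hdac5, Hdac11 and Setd4 the open square, S2-4, is the Saline point nearest to or within the EtOH range.

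Ezh1 rose where its paralogue fell, from 23.6 ± 2.06 to 28.7 ± 2.17 CPM (log2 fold change 0.21 ± 0.068 SE, adjusted p = 0.0440). Of the 21 genes past the adjusted p, 18 had the same direction of the CPM ratio in both batches. The genes were chosen on these same embryos, which favours one direction, and no share over all genes was computed. The count is therefore a description and not a replication. Setd3, Kdm3a and Hdac1 had log2 ratios of 0.01, 0.03 and 0.03 in batch 1 and fell by 0.16, 0.17 and 0.24 in batch 2. For Hdac5 the log2 ratio was 0.73 in batch 1 and 0.27 in batch 2, which holds S2-4. For Ezh2 it was -0.19 in each batch, smaller than the fitted value because TMM scaling shifted the scale. With counts summed per dam, 2 dams against 2, or with the replicate block, no gene passed the adjusted p in all nuclei.

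**Figure D4:**
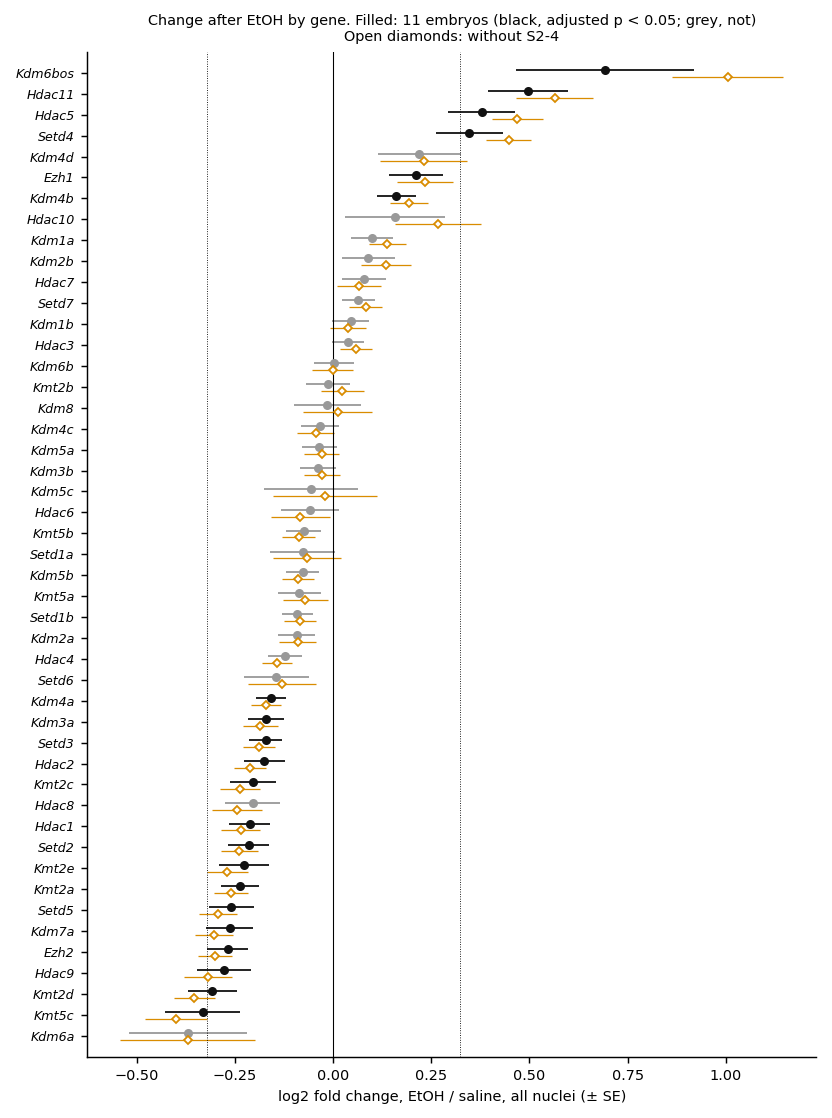
The log2 fold change of EtOH over Saline in all nuclei, ± SE, for the 47 genes in order, over 11 embryos (circles; black where adjusted p was under 0.05) and without S2-4 (open diamonds); dotted lines mark log2 fold changes of -0.32 and 0.32. Kdm6bos, Hdac11, Hdac5 and Setd4 stand at the top with values of 0.35 to 0.69, and most of the genes that fell lie between the lower dotted line and 0.

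Fold changes moved with gene length. Over 17891 genes with an annotated length, the median log2 fold change was 0.17 in the shortest of 5 equal bins and -0.08 in the longest, and Spearman's rho between genomic length and log2 fold change was -0.25 over all genes and -0.38 over the 47. Of the 47 genes, 20 were in the next to longest bin and 11 in the longest, at 76877 bases or more, and the latter had a median of -0.20. The part of length in these results was not tested.

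Within classes fewer genes passed. A class sum also moves with the mix of its clusters, so mix and level per cell cannot be told apart there either. The part of the mix was not tested. In RGC 2 genes fell, Kmt2a (log2 fold change -0.26, adjusted p = 0.0402) and Ezh2 (-0.21, adjusted p = 0.0473), and 0 rose, where 3.06% and 2.53% of 14282 genes did. At an unadjusted p under 0.05, 4 genes were higher and 10 lower in RGC (15.4% and 14.5% of all genes), and DESeq2 gave 0 higher and 5 lower at the adjusted p (6.69% and 7.05% of all genes). With total UMIs only, and with nuclei thinned to 2000 UMIs, 0 genes passed in RGC, and the median log2 fold change of the 47 genes, -0.03, was 0.04 with total UMIs only. Of the 2 proliferation markers, Mki67 fell in RGC too (log2 fold change -0.38, adjusted p = 0.0402). Top2a did not, with 511 ± 124 CPM in Saline and 569 ± 31.6 CPM in EtOH embryos (0.08, adjusted p = 0.651). Ezh2 had 580 ± 21.8 CPM in Saline and 530 ± 18.2 CPM in EtOH RGC, without overlap. Ezh1 was apart in the other direction, with every EtOH embryo above every Saline embryo. Kdm4d was apart likewise, but averaged 4.73 CPM over the 11 embryos in RGC. It met the floor of 5 CPM only through the EtOH group, so nothing is drawn from it. The share of all genes apart in RGC was not computed. Of the up to 3 genes with the smallest p-values in each direction, those that did not pass in RGC were Kmt2e (log2 fold change -0.20, adjusted p = 0.0634), Ezh1 (0.23, adjusted p = 0.0879), Kdm6bos (0.81, adjusted p = 0.108) and Setd4 (0.30, adjusted p = 0.127). Without S2-4 their adjusted p-values were 0.00557, 0.0615, 0.0137 and 0.0325. In IPC Hdac5 rose from 26.3 ± 7.49 to 41.4 ± 3.38 CPM (log2 fold change 0.58 ± 0.142 SE, adjusted p = 0.0483) and Kmt2a fell (-0.22, adjusted p = 0.0483), where 0.891% of 11558 genes rose and 0.874% fell. In the order above, Hdac5 had 24.6, 18.5, 22.6, 27.7 and 38.4 CPM in the IPC of Saline embryos and 37.4 to 46.4 CPM in those of EtOH embryos. Again S2-4 alone reached the EtOH range. Neither gene passed in IPC with total UMIs only, after thinning or with the dam as a random block (limma adjusted p = 0.0554 for Hdac5 and 0.0589 for Kmt2a). Mki67 and Neurod2 fell in IPC as well (log2 fold changes -0.39 and -0.49, adjusted p = 0.0470 and 0.0479), while Top2a did not (0.06, adjusted p = 0.825). In IPC, Kdm6bos (log2 fold change 1.10, adjusted p = 0.0716), Hdac11 (0.48, adjusted p = 0.139), Kmt2e (-0.20, adjusted p = 0.0768) and Setd5 (-0.18, adjusted p = 0.0804) did not pass, and without S2-4 their adjusted p-values were 0.00271, 0.129, 0.00931 and 0.0323.

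In PN 1 gene rose and 8 fell, where 5.18% and 5.25% of 14604 genes did. Hdac11 rose from 6.87 ± 1.64 to 10.2 ± 1.17 CPM (log2 fold change 0.54 ± 0.132 SE, adjusted p = 0.0312). The genes that fell were Kmt2a, Kmt2c, Kmt2d, Kmt2e, Setd2, Ezh2, Kdm7a and Hdac8, with log2 fold changes of -0.30 (Kdm7a) to -0.15 (Kmt2a). Hdac5 (0.26, adjusted p = 0.0580) and Setd4 (0.32, adjusted p = 0.0516) did not pass, and without S2-4 their adjusted p-values were 0.00207 and 0.00024. With total UMIs only, 1 rose and 3 fell in PN, after thinning 0 and 1, and with the dam as a random block 1 and 4. The shares of all genes under these settings are not given here, in PN or the other classes. These counts can therefore not be set against all genes. Markers of other cells moved in PN too: 2 of 4 interneuron markers, Erbb4 and Dlx1, fell (log2 fold changes -1.26 and -0.60, adjusted p = 0.0460 and 0.0352), as did the IPC marker Eomes (-0.66, adjusted p = 0.0260), the RGC marker Ednrb (-0.76, adjusted p = 0.0347), the pericyte marker Mcam (-0.90, adjusted p = 0.0405) and the PN marker Neurod2 (-0.68, adjusted p = 0.0235), and P2ry12 rose (0.84, adjusted p = 0.0305). Their part in the PN result was not tested.

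In Int 3 genes rose and 8 fell, where 3.92% and 2.86% of 14525 genes did. Hdac11 rose from 12.6 ± 2.66 to 18.6 ± 3.30 CPM (log2 fold change 0.53 ± 0.134 SE, adjusted p = 0.0370), Setd4 rose from 23.4 ± 5.36 to 31.7 ± 4.00 CPM (0.39 ± 0.113 SE, adjusted p = 0.0493), and Ezh1 rose by a log2 fold change of 0.30 (adjusted p = 0.0403). The genes that fell were Kmt2a, Kmt2c, Kmt2d, Ezh2, Setd3, Setd5, Kdm4a and Kdm7a. With total UMIs only, 1 rose and 3 fell in Int, and after thinning 1 and 4, again without the shares of all genes. In Int, Mki67 fell (log2 fold change -0.57, adjusted p = 0.0349) and P2ry12 rose (0.76, adjusted p = 0.0367), and their part was not tested. Top2a did not pass in Int (-0.16, adjusted p = 0.732). Kdm7a fell from 97.1 ± 6.94 to 81.8 ± 4.95 CPM (-0.32 ± 0.069 SE, adjusted p = 0.0300), and Ezh2 fell from 384 ± 7.59 to 332 ± 14.9 CPM without overlap (-0.28 ± 0.055 SE, adjusted p = 0.0242). Without S2-4, the genes past the adjusted p numbered 3 higher and 9 lower in RGC, where 14.7% and 12.8% of all genes passed, and 6 and 5 in IPC (10.8% and 7.73% of all genes). They numbered 7 and 16 in PN (18.2% and 14.2%) and 5 and 14 in Int (15.3% and 10.6%).

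In single clusters, 1019 pairs of a gene and a cluster were tested. At an adjusted p under 0.05 within the cluster, 8 pairs fell and 0 rose, 5 of the 8 past the fold threshold, where 0.416% of 217253 pairs over all genes fell and 0.453% rose. DESeq2 gave 19 lower and 3 higher, where 1.28% and 1.69% of all pairs passed. At an unadjusted p under 0.05, 129 pairs were lower and 70 higher (12.7% and 6.87%), against 7.83% and 9.54% over all genes. Without S2-4, 58 pairs fell and 33 rose, where 3.92% and 6.38% of all pairs did. Hdac5 and Setd4 had a positive log2 fold change in all 21 and 22 clusters where they were tested, and Ezh2, Kmt2a and Kmt2c a negative one in all 25. The clusters share their embryos, so these signs are a description, and of 6599 genes tested in at least 20 clusters 5.82% were positive and 3.02% negative in each cluster tested.

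Cluster 5, the migrating interneurons, held 6 of the 8 pairs, where 1.06% of its 10705 genes fell. Ezh2 was at 362 to 416 CPM in Saline (median 397) and 286 to 349 CPM in EtOH embryos (log2 fold change -0.32 ± 0.067 SE, adjusted p = 0.0290). Kdm7a was at 107 to 116 CPM in Saline and 84.5 to 99.5 CPM in EtOH embryos (-0.33 ± 0.070 SE, adjusted p = 0.0290). Both genes had groups apart, with S2-4 at 366 CPM of Ezh2 and 115 CPM of Kdm7a inside the Saline range. Kmt2d fell from 42.1 ± 4.15 to 32.4 ± 2.47 CPM (-0.42 ± 0.103 SE, adjusted p = 0.0448). Setd5, Hdac2 and Kmt2c fell by 0.30, 0.31 and 0.26 on the log2 scale, short of the fold threshold. In Cluster 1, the callosal PN, Kdm7a fell from 87.5 ± 3.18 to 71.1 ± 9.81 CPM (-0.34 ± 0.085 SE, adjusted p = 0.0396), and 2.20% of the 10769 genes of that cluster fell.

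Hdac9 in Cluster 16, the caudal subcortical PN, had the largest log2 fold change among the results past both thresholds. It had 156, 150.5, 141, 160 and 113 CPM in the Saline embryos in the order above and 102, 98.1, 80.6, 91.7, 82.9 and 75.3 CPM in the EtOH embryos. Each EtOH embryo lay under each Saline embryo, S2-4 being the lowest of the Saline embryos. The log2 fold change was -0.73 ± 0.120 SE (edgeR adjusted p = 0.0102) and -0.83 without S2-4, while 0.247% of the 8509 genes of the cluster fell. In the other PN clusters together Hdac9 had 150 ± 16.6 CPM across Saline and 129 ± 15.3 CPM across in EtOH embryos. Among them its log2 fold change ran from -0.55 in Cluster 8 (adjusted p = 0.114) to 0.52 in Cluster 24 (adjusted p = 0.409). In all nuclei Hdac9 fell from 304 ± 13.1 to 265 ± 17.8 CPM (log2 fold change -0.28 ± 0.069 SE, adjusted p = 0.0212). In RGC it had 541 and 523 CPM (adjusted p = 0.302).

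**Figure D5:**
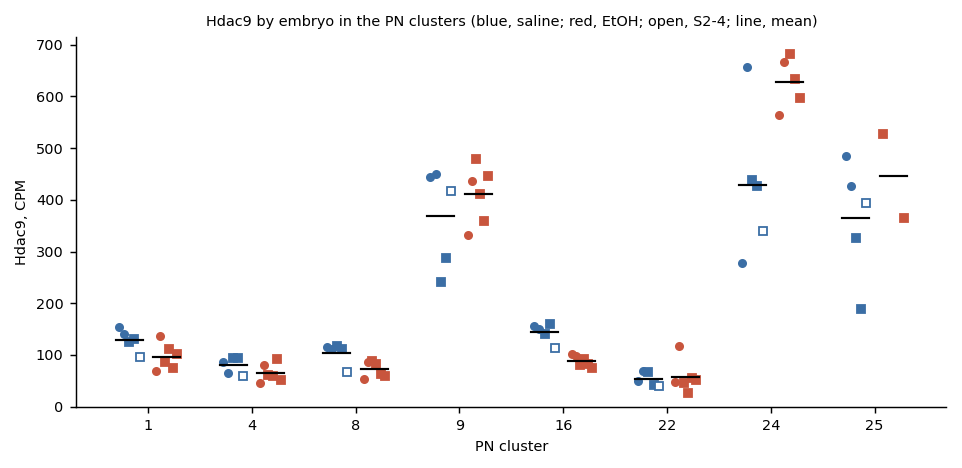
Hdac9 in CPM by embryo in the 8 PN clusters (blue, Saline; red, EtOH; open square, S2-4; line, group mean; embryos with under 10 nuclei in a cluster left out). In Cluster 16 all EtOH points lie at or under 102 CPM and all Saline points at or above 113 CPM, whereas the groups overlap in each of the other 7 clusters.

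Outside the called pairs, the lowest unadjusted p-values were those of Setd4 in Cluster 7, an interneuron cluster, and Kmt2e in Cluster 11, the striatal interneurons. Setd4 had 20.5 to 34.6 CPM in Saline, S2-4 being the highest, and 31.4 to 44.3 CPM in EtOH embryos (log2 fold change 0.59 ± 0.142 SE, adjusted p = 0.0748, and 0.0026 without S2-4). Kmt2e had 339 ± 14.8 CPM in Saline and 295 ± 10.5 CPM in EtOH embryos (-0.26 ± 0.067 SE, adjusted p = 0.0673, and 0.0031 without S2-4).

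Other genes of the same pathways, 87 in 7 lists, were tested in all nuclei for comparison. At the adjusted p, 4 rose and 26 fell (4.598% and 29.9%), where 10.5% of all genes rose and 10.5% fell, and 7.56% and 21.4% of those with a mean of at least 20 CPM. Without S2-4, 9 rose and 32 fell (20.7% and 17.7% of all genes). Of the 9 other subunits of Polycomb repressive complex 2, 5 fell and 1 rose: Suz12, a core subunit, fell from 177 ± 17.6 to 151 ± 11.3 CPM (log2 fold change -0.30 ± 0.062 SE, adjusted p = 0.0154), and Phf1, an accessory subunit, rose from 8.65 ± 1.84 to 11.7 ± 0.677 CPM (0.37 ± 0.103 SE, adjusted p = 0.0283). Of 25 genes of the Hdac corepressor complexes, 9 fell and 2 rose. Sap30 of the SIN3 complex fell from 7.44 ± 0.730 to 5.99 ± 0.694 CPM (-0.37 ± 0.090 SE, adjusted p = 0.0199) and Mbd3 of the NuRD complex rose from 13.4 ± 3.35 to 18.5 ± 1.54 CPM (0.41 ± 0.109 SE, adjusted p = 0.0261). Of 22 further methyltransferases 5 fell and 0 rose, Suv39h2, an H3 lysine 9 methyltransferase, falling from 14.8 ± 1.74 to 12.2 ± 1.35 CPM (-0.36 ± 0.082 SE, adjusted p = 0.0174). Of the 9 COMPASS partners of the Kmt2 proteins 2 fell, of 9 acetyltransferases 3 fell, of 6 other demethylases 1 fell, and of 7 sirtuins 1 fell and 1 rose. Median log2 fold changes ran from -0.18 (the Polycomb list) to 0.12 (sirtuins), against 0.01 over all genes tested.

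Of the 15 results past both thresholds in clusters, classes and all nuclei, Hdac11 in all nuclei alone stayed past them with each of the 11 embryos left out in turn (adjusted p up to 0.0470). Hdac9 in Cluster 16 was lost without S1-1 (adjusted p = 0.0620), Hdac5 in all nuclei without S1-2 (adjusted p = 0.0539), and Setd4 in all nuclei without S1-1, S1-2 or S2-1 (adjusted p up to 0.0597). The other results stayed past both thresholds in 1 to 4 of the 11 fits, with S2-4 left out in each case among them. Apart from these fits, Hdac9 in Cluster 16 was also lost after thinning and with counts summed per dam (adjusted p = 0.166 for the sums). It stayed past both thresholds under 11 of 13 alternative settings.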

How the data were processed

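Single-nucleus libraries (10x 3′ chemistry) came from 11 cortices, 5 Saline and 6 EtOH; another embryo in the labels was not analysed here. Cell Ranger on mm10 produced the matrices; the authors filtered nuclei, clustered them with Seurat and deposited raw UMI counts for each embryo and cluster, without mitochondrial and sex-specific genes. Whether the authors' counting used introns is not given in the sources used here. Their nuclei and 25 clusters were used as deposited, and no doublet caller was run.

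Counts were summed per embryo over each cluster, over the RGC (5 clusters), IPC (2), PN (8) and Int (7) classes and over all nuclei, leaving out sums of under 10 nuclei. Levels are CPM. EtOH was compared with Saline by edgeR 4.0.16 (R 4.3.3; TMM, filterByExpr, robust quasi-likelihood test, no covariate, at least 2 embryos per group), with Benjamini-Hochberg adjustment over all genes of the comparison; the authors instead tested nuclei. Calls needed an adjusted p under 0.05, with the authors' fold threshold where stated. Alternatives included DESeq2 1.42.0 and limma 3.58.1 with dams as random blocks. Counts were simulated for all nuclei with 66, 67 and 66 of 17933 genes changed by folds of 1.25, 1.5 and 2, and without a dam effect. There edgeR recovered 15.2%, 53.7% and 86.4% of the changed genes, so small changes were often missed. In the data a larger share of genes passed (10.5% higher and 10.5% lower), so these values do not give the recovery in the data. Sequences are from RefSeq and gene positions from GENCODE M21, both on GRCm38.

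Named were all results past both thresholds, the 10 pairs of a gene and a cluster with the smallest p, up to 3 genes per direction in each class and in all nuclei, the 12 genes with the widest range over clusters, and up to 3 called genes per direction of each partner list; other genes are named as examples of their family. The genes and lists were chosen with earlier results of these data known. The call rule without a fold threshold and the counts of genes in one order within every embryo were added after the values were seen.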

Additional observations from a re-analysis of the deposited data

Results flagged for a closer look

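Of 162 groups of 4 to 6 embryos examined for the 47 genes, 10 had an embryo whose gap to the nearest other exceeded Dixon's 95% critical value, where chance flags about 1 in 20. S2-4 was that embryo in 3: it had 286 CPM of Kdm1a in all nuclei against 231 to 240 in the other Saline embryos, 262 CPM of Kdm2a against 239 to 244, and 4.77 CPM of Kdm6bos in IPC against 1.72 to 2.06. S2-1 had 146 CPM of Kdm6a against 209 to 224 in the other Saline embryos. Among EtOH embryos, E1-1 had 84.7 CPM of Setd3 and 195.5 CPM of Kdm4c in all nuclei, E2-2 had 5.71 CPM of Kdm6bos, and E2-3 had 50.7 CPM of Kdm4a. In Cluster 5, E2-1 had 523 CPM of Kmt2c against 461 to 478 in the other EtOH embryos, and E2-3 had 234 CPM of Setd5 against 262 to 274.

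Hdac9 in Cluster 16 was also compared with Hdac9 in the other PN clusters. The log2 ratio of its level in Cluster 16 to that in the other PN clusters averaged -0.06 in the 5 Saline embryos (SD 0.126) and -0.55 in the 6 EtOH embryos (SD 0.294). The difference was -0.49, with p = 0.0130 in a two-sided exact permutation test over 462 splits of the embryos, and -0.51 with p = 0.0381 without S2-4. The pair was chosen for its fall in Cluster 16 and the splits take littermates as exchangeable, so these p-values do not show that the effects differ.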

How the results depend on the processing

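Calls past both thresholds numbered 5 in the 25 clusters, 5 in the 4 classes and 5 in all nuclei. In the same order they numbered 1, 2 and 3 with total UMIs only, 3, 2 and 4 after thinning to 2000 UMIs, 2, 3 and 5 with batch as a term, 0, 1 and 0 with counts summed per dam, 10, 8 and 6 by DESeq2, and 12, 4 and 4 by limma with the dam as a random block. No filter gave 31 calls in clusters, a mean of at least 5 CPM gave 3 in all nuclei, and adjustment over all clusters together gave 3 in clusters. Calls by adjusted p alone numbered 8, 24 and 21: total UMIs only gave 4, 8 and 14, thinning 3, 6 and 14, sums per dam 0, 1 and 0, DESeq2 22, 42 and 24, limma 19 in clusters, no filter 53 in clusters, and joint adjustment 3 in clusters. With the replicate block, which pairs embryos by batch and number, 1, 0 and 0 calls were left by either rule. Numbers did not pair embryos: same-numbered embryos correlated in their deviations at -0.26 to 0.18. For most settings here and below, the share of all genes is not given. The counts show how far calls depend on the setting, and not whether these genes differ from others.

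Leaving out 1 embryo gave 0 to 49 calls past both thresholds in clusters, 0 to 21 in classes and 1 to 6 in all nuclei, and 0 to 91, 0 to 65 and 4 to 24 by adjusted p alone. The highest counts came without S2-4, and the lowest in all nuclei, 1 and 4, without S1-2; without any other embryo, the calls past both thresholds in clusters numbered 3 or fewer. Genes apart between classes numbered 21 higher and 7 lower in RGC than PN, with 21 to 24 and 7 to 8 when 1 embryo was left out. For Int against PN (3 and 1) thinning gave 0 higher, Saline embryos alone 8 and 2, EtOH embryos alone 7 and 4, and leaving out 1 embryo 3 to 4 and 1 to 2. For Cluster 17 against Cluster 6 (2 and 4) thinning gave 1 higher, Saline embryos alone 4 and 11, EtOH embryos alone 9 lower, and leaving out 1 embryo 2 to 2 and 4 to 5. Fewer embryos must overlap less, and the causes of the other shifts were not tested. None of the 42 named log2 fold changes changed sign under any alternative in which it was fitted. Not all were fitted after thinning or with a mean of at least 5 CPM.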

Other observations

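Cluster 6, the non-mitotic IPC, had the highest mean of 10 of the 47 genes, more than any other cluster (21.3%, against 6.98% of 13630 genes with at least 5 CPM in their highest cluster). Of these 10, 7 were Kdm genes (Kdm1a, Kdm4a, Kdm4b, Kdm4c, Kdm5a, Kdm5b and Kdm7a), where 17 of the 47 are, and no test was made of that share. The other 3 were Kmt2e, Kmt5b and Hdac8. Cluster 25, a small PN cluster, had the lowest mean of 20 genes, Kmt2a, Kmt2e and Kdm1b among them. It held 124 nuclei, with at least 10 in 7 embryos. The share of all genes lowest there was not computed, so whether the count is particular to these genes cannot be told. Embryo values of Cluster 6 overlapped those of the next cluster for all 10 genes. Cluster 10, the late interneuron precursors, was highest for Kmt2a at 386 ± 27.8 CPM, Kmt2b at 51.1 ± 7.91 CPM, Setd1b at 50.1 ± 5.87 CPM and Hdac2 at 124 ± 12.02 CPM (SD, n = 11), of which the first 3 are methyltransferases of H3 lysine 4. Embryo values of each overlapped those of the next cluster, and the share of all genes highest in Cluster 10 was not computed.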
